A study of Mus musculus with 6 samples.

Results

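The regions described here are 620 clustered distal H3K27ac peaks near OCT4 sites, out of 31131 peaks in the deposited table of O4AID embryonic stem cells (ESCs). A peak was a member when it lay within 1 kb of an OCT4 site, had no GENCODE vM21 transcript start within 1 kb, and had at least 2 other OCT4-site peaks nearby, counted up to a fixed gap between edges. The farthest second neighbour of a member lay 12491 bp away, and the closest that was left out lay 12540 bp away. The OCT4 mark came from published ChIP-seq of other ESCs and not from these cells, and none of the 3 criteria used a change in H3K27ac. The peaks themselves, neighbours included, were called on uninduced H3K27ac reads, so membership depends on the uninduced signal. There were 3780 distal peaks near OCT4 sites in all, of which 1391 had 1 other OCT4-site peak within that gap and 1769, called solitary, had none. Of the 620 members, 581 reached 0.5 RPKM (reads per kilobase of peak, scaled to the mapped reads of the library) in the authors' mean of either condition and were tested, and 39 did not.

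OCT4, the product of Pou5f1, is a POU-family transcription factor that binds the 8-base octamer, often beside SOX2 at a composite SOX-OCT motif. In naive ESCs OCT4, SOX2, NANOG, ESRRB and KLF4 bind together at enhancers, DNA elements that raise transcription of genes at a distance. Acetylation of histone H3 at lysine 27 (H3K27ac) marks active enhancers and promoters, and dense groups of such sites near cell identity genes are known as enhancer clusters or super-enhancers.

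The cells were O4AID ESCs of strain 129SV. Their genotype joined Oct4-/-, TetOFF Oct4, CAG Oct4AID and also CAG Tir1, so that the only OCT4 made under doxycycline is a fusion with an auxin-inducible degron, driven by the constitutive CAG promoter rather than by Pou5f1. Both groups carried every one of these alleles, were of the same ZHBT-O4AID line, and grew in N2B27 with PD03, Chiron and mLIF. The 3 IAA libraries came from cells given 500 μM of the auxin IAA for 1.5 h, which degrades the fusion protein through TIR1, and the 3 uninduced libraries from untreated cells. The study describes the replicates of each group as 3 independent immunoprecipitations (IPs). The sources used here do not say whether they were separate cultures, so p-values measure the spread between these libraries. The files hold H3K27ac only, so OCT4 protein itself was not measured in them. H3K27ac peaks lay within 10 kb of the starts of 4 of 5 naive stem cell genes examined (Nanog, Sox2, Klf4 and Zfp42, but not Esrrb) and of 1 of 4 genes of differentiated cells (Pax6).

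Library depth, recovered from the value of 1 read, was 31634480 to 39547452 reads, and a tested member held a median of 76 to 104 reads in the uninduced and 42 to 52 in the IAA libraries. Counting error at the median member was therefore 9.81% to 15.4%, for counting alone. Across all 26457 tested peaks, 68.2% were lower after IAA in limma and 0.0605% were higher, so a fall by itself does not set the members apart. Reads in peaks were 6.89% ± 0.249 (SD, n = 3) of each library in uninduced cells and 4.63% ± 0.551 after IAA. There was no spike-in, and a general loss of H3K27ac and a less efficient IP cannot be told apart from these values.

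Exact SOX-OCT letters, taken as TTGT, 1 base and ATGCNAA on either strand, were found within the bounds of 2 members, and both stretches are shown because they carry the motif that OCT4 shares with SOX2. Capitals mark the motif, and each line reads 5′ to 3′ on the stated strand of GRCm38 (RefSeq).
Cggbp1, chr16:64886273-64886404 (+): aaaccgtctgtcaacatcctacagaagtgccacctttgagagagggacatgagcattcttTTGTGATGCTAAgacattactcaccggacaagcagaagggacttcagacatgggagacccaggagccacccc
Ube2s, chr7:4821946-4822077 (-): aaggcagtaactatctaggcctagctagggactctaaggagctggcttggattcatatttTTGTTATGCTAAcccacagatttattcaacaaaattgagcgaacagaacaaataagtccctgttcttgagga
The member holding the first match fell from 3.81 ± 0.376 RPKM to 2.11 ± 0.333 (SD, n = 3 each), and that holding the second from 4.38 ± 0.327 to 2.39 ± 0.224. The limma changes were -0.83 and -0.85 on the log2(RPKM + 0.1) scale (adjusted p = 0.00127 and 0.000606), both near the median member.

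Because the composite was so rare, octamers (ATGCNAAT, capitals) are shown for members of the loci described below; they were chosen after that count was seen. The octamer shares 7 of its letters with the composite. The Slc2a3 and Tnfsfm13 octamers lie inside their peak, and those of Klf4 and Ptprk lie outside it but within the 1000 bases around its centre.
Klf4, chr4:55463300-55463407 (+): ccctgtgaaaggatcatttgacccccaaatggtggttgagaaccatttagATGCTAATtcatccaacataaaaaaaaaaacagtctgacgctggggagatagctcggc
Slc2a3, chr6:122764125-122764232 (+): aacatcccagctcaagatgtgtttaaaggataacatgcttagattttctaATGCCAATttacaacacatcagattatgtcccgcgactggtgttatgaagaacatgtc
Ptprk, chr10:28014587-28014694 (-): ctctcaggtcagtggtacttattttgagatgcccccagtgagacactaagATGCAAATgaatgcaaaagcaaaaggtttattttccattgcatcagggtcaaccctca
Tnfsfm13, chr11:69705041-69705148 (+): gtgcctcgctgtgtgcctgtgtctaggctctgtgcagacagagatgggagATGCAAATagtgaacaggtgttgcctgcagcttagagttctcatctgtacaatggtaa
Finally, the central 300 bases are given for the member with the largest fall, beside Cobl, and for the highest member of the Sox2 locus. The Cobl stretch held none of 5 motifs looked for (SOX-OCT, octamer, ESRRB, KLF, STAT), and the Sox2 stretch held 1 KLF match, in capitals.
Cobl, chr11:12467835-12468134 (+): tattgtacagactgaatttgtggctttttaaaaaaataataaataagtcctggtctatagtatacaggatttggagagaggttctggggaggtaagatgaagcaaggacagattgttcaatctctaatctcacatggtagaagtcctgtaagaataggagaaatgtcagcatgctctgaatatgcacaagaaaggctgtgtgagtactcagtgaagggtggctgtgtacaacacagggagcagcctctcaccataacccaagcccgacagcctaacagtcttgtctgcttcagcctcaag
Sox2, chr3:34757380-34757679 (+): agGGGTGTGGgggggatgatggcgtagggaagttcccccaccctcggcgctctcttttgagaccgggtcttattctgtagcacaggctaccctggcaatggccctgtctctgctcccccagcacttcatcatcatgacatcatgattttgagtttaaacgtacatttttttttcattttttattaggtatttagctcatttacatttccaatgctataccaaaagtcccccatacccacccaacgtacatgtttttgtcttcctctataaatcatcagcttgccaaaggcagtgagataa

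After IAA, H3K27ac at the clustered members was lower in every IAA library than in any uninduced library. The median member stood at 1.99, 1.90 and 1.90 on the log2(RPKM + 0.1) scale in the uninduced libraries, and at 1.15, 1.13 and 0.91 in the IAA libraries. The change was -0.87 (mean 1.93 ± 0.0495 to 1.06 ± 0.135, SD, n = 3 each; exact two-sided permutation p = 0.1, the smallest that 3 against 3 libraries allow). On the linear scale the median member went from 3.74 to 2.01 RPKM in the authors' means. After subtracting the median peak from each library (centring), the change was -0.32, and with quantile normalization -0.29, so that the size of the fall depended on the scaling and its direction did not.

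By limma with Benjamini-Hochberg adjustment over all 26457 peaks, 540 of the 581 tested members (92.9%) were lower after IAA, against 68.2% of all peaks. Members held more reads than all tested peaks, with medians of 76 to 104 against 57 to 73 in the uninduced libraries. After IAA the medians were 42 to 52 against 36 to 45. An equal fall is called more readily with more reads, and the part of depth in this gap was not tested. No member was higher, and none had a positive change with an unadjusted p under 0.05. The changes ran from -1.98 to 0.09, with quartiles of -1.05, -0.83 and -0.64, and 577 of the 581 were negative. The 3 IAA values were all under the 3 uninduced values at 533 members (91.7%), which was so for 71.2% of all peaks. Distal OCT4-site peaks with 1 other such peak nearby showed this at 92.3%, and solitary ones at 81.8%, so it was not particular to members. After centring, 92 members (15.8%) were lower and 1 was higher, against 1.97% and 0.544% of all peaks. Of the peaks with 1 other, 10.9% were lower after centring, and of the solitary peaks 2.31%. Leaving out uninduced replicate 1 kept 464 members lower, the fewest of any single library left out, and leaving out IAA replicate 3 as well kept 422. The share of all peaks lower was then 39.2% and 28.8%, in place of 68.2%.

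**Figure D1:**
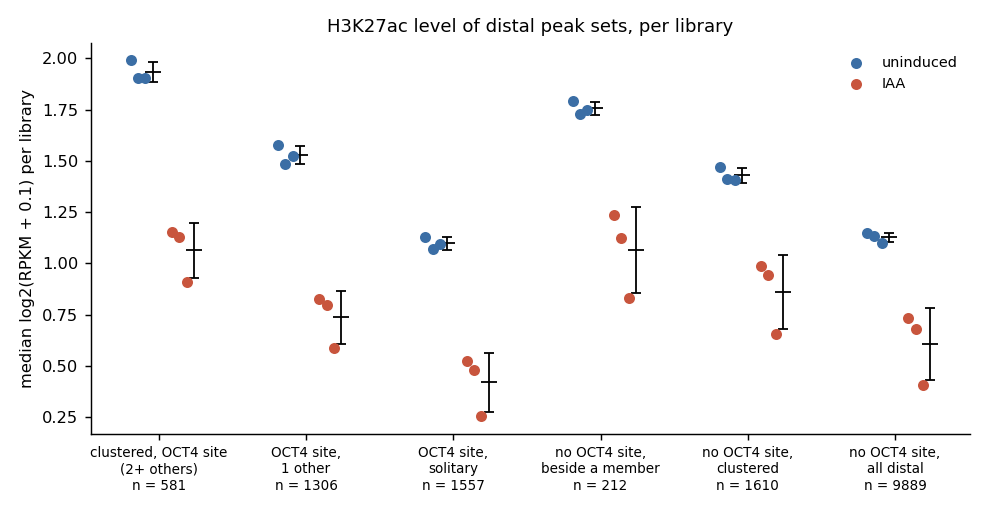
Median log2(RPKM + 0.1) of 6 sets of distal peaks in each of the 3 uninduced (blue) and 3 IAA (red) libraries, with the mean and SD in black and the number of tested peaks below. The clustered members are the highest set in uninduced cells (1.93), and after IAA they stand level with the unmarked peaks beside them (both 1.06).

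A comparison within each library cancels a factor that multiplies all its peaks alike, so the members were next set against other distal peaks. Such a comparison does not cancel background added to every peak, which weighs differently on high and low peaks and was not tested. In uninduced cells the median member was 0.84 ± 0.0241 (log2) above the median solitary peak near an OCT4 site, and 0.64 ± 0.0126 above it after IAA. This difference narrowed by 0.19, with no overlap between the libraries (exact p = 0.1). Against peaks with 1 other OCT4-site peak the lead went from 0.40 ± 0.0190 to 0.33 ± 0.00854, and the change in the lead was -0.08 (exact p = 0.1, no overlap). The members' lead thus narrowed in both comparisons, at the smallest p this design can give. Against peaks with 1 other the contrast was small, with median limma changes of -0.83 for members and -0.80 for those peaks. It was not repeated among peaks of like uninduced RPKM. Of 1557 solitary peaks 78.0% were lower in limma, and of 1306 peaks with 1 other 90.6%.

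Members also started higher than solitary peaks. Comparing the sets inside each of 5 classes of uninduced RPKM gave a change in the lead over solitary peaks of -0.10 in place of -0.19, again at an exact p = 0.1. The classes were cut on uninduced values that also enter the change, and the part of uninduced height in this difference was not tested.

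The larger contrasts were with all distal peaks that lack an OCT4 site and with clusters of such peaks, though not with those beside a member. The members' lead over 9889 unmarked distal peaks went from 0.81 ± 0.0356 to 0.46 ± 0.0411, a change of -0.35 (exact p = 0.1, no overlap), or -0.21 inside the 5 classes of uninduced RPKM. Distal peaks with at least 2 other unmarked peaks and no OCT4-site peak within the same gap (1610 tested) served as clusters without an OCT4 site. Their median changed by -0.57, beside -0.52 for all unmarked distal peaks, and 68.2% of them were lower. The members' lead over these unmarked clusters went from 0.50 ± 0.0133 to 0.20 ± 0.0445, a change of -0.30 (exact p = 0.1, no overlap; -0.22 inside the RPKM classes).

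The 212 tested unmarked distal peaks that lay within that gap of a member were intermediate. Their median changed by -0.69, and 80.2% of them were lower in limma, close to the -0.68 and 78.0% of solitary OCT4-site peaks. Members stood 0.18 ± 0.0212 above these neighbours in uninduced cells. After IAA the difference was -0.08, 0.00 and 0.08 in the 3 libraries, so that no common lead in level was left (change -0.18, exact p = 0.1, no overlap).

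**Figure D2:**
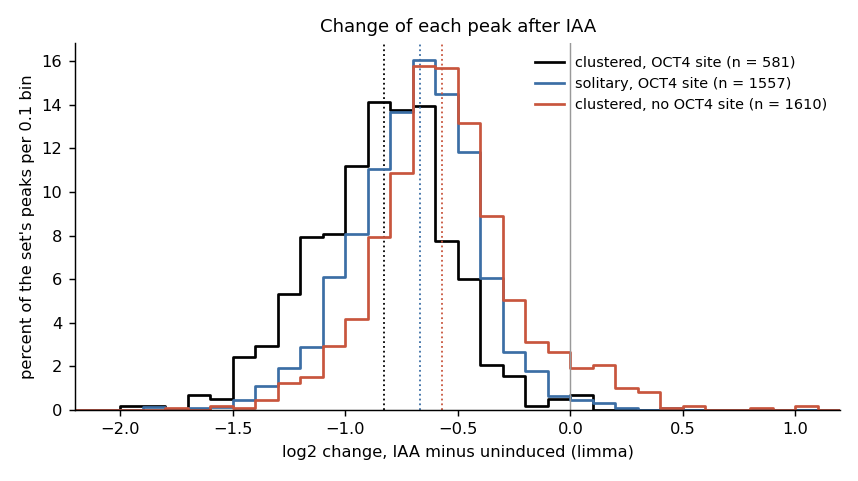
Percent of peaks in each 0.1-wide bin of log2 change (IAA minus uninduced, limma) for clustered members (black), solitary OCT4-site peaks (blue) and clustered peaks without an OCT4 site (red); dotted lines are the medians, -0.83, -0.67 and -0.57. The members' distribution is shifted to the left of both others, and 4 of their 581 changes are above 0.

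These p-values belong to 20 differences between peak sets, over which a p of 0.1 adjusts to 0.2 (Benjamini-Hochberg), so none passes 0.05 in a design of 3 against 3 libraries. Members took up 2.65% ± 0.0930 of the reads in peaks in uninduced cells and 2.21% ± 0.0894 after IAA (n = 3 each), while they make up 1.99% of peaks. That share fell by 0.446 percentage points, with no overlap (exact p = 0.1).

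The fall did not grow with every further neighbour. Solitary peaks changed by -0.68, peaks with 1 other by -0.79, the 354 tested members with 2 others by -0.89, and the 153 with 3 others by -0.96. The 74 with 4 or more others changed by -0.76, and 85.1% of them were lower in limma. Many of these 74 lie beside each other, as near Ranbp17, Spen, AU018091 and Mtcl1, and are not independent. Relative to solitary peaks the change was -0.21 for 2 others, -0.28 for 3 others and -0.08 for 4 or more, each with no overlap and an exact p = 0.1. Members with 4 or more others lost less than members with 2 (0.13, exact p = 0.1, no overlap). Without peaks made mostly of repeated sequence, as defined for the members that did not fall, that last difference was 0.10, with overlap and an exact p = 0.3. The difference between 3 and 2 others was -0.07, with overlap and an exact p = 0.2.

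**Figure D3:**
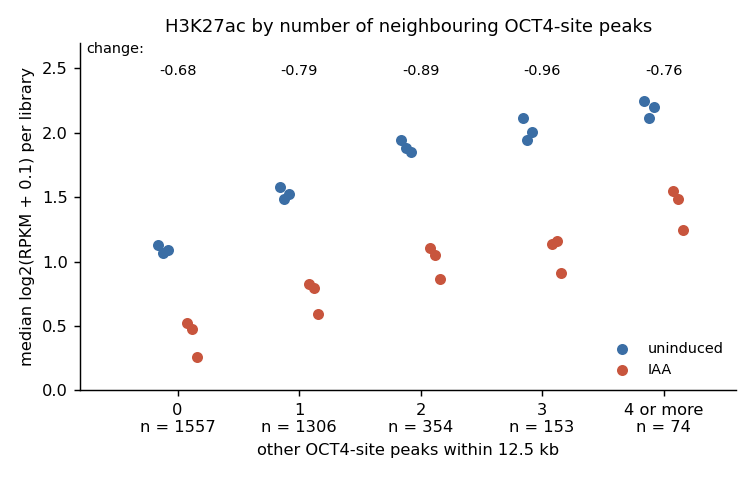
Median log2(RPKM + 0.1) per library of distal OCT4-site peaks by their number of other OCT4-site peaks nearby; each point is a library, and the number above each class is its change. The uninduced level climbs with each class, and the change is largest at 3 others (-0.96).

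Members next to each other share their surroundings, so they were joined into 223 loci at gaps up to the same limit, with a median of 3 members and a median span of 4790 bp (longest 25493 bp). Of these loci 39 held 1 member and 44 held 2, because an OCT4-site peak that counts as a neighbour need not itself be a member. Such neighbours do not enter the locus. The locus value was the length-weighted mean RPKM of its tested members, and 215 loci had one. The median locus changed by -0.84 (quartiles -1.03 and -0.67) on log2(RPKM), leaving 56.1% of the uninduced value. The conditions were apart, with IAA lower, at 207 loci (96.3%), against 82.5% of 560 loci of unmarked clusters. In 184 loci every tested member was lower in limma, and in 8 none was. Relative to the median peak, which itself changed by -0.58, 186 of the 215 loci fell further.

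Members of a locus resembled each other in how much they lost. In 173 loci with at least 2 tested members (539 peaks), the SD of the change was 0.199 within loci and 0.228 between them, an intraclass correlation of 0.567. Unmarked clusters gave 0.559, so this likeness was not particular to members. The SD over all members, 0.300, compares with a median limma standard error of 0.178 for 1 member.

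Near the naive pluripotency genes, 7 of 19 listed genes had a member within 100 kb of their start, which gave 7 loci. Of their 24 tested members 23 were lower and none higher, beside 92.9% lower of all tested members and 68.2% of all peaks. The median locus change was -1.02, beside -0.84 over all 215 loci. All 7 loci were lower in every IAA library than in any uninduced one, as were 207 of all 215 loci. The list was made with earlier results of these data known.

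The Sall4 locus (chr2:168839875-168842563, intergenic, 71932 bp from the start of Sall4, a zinc finger factor of the pluripotency network) measured 3.98, 4.39 and 3.40 RPKM uninduced and 1.91, 1.58 and 1.60 after IAA. Its change of -1.21 was the largest of the 7, and all 3 members were lower. The Klf4 locus (chr4:55463382-55479438, 53028 bp from the start of Klf4, a Krüppel-like factor that sustains the naive state) held 7.07, 6.31 and 6.77 RPKM uninduced and 3.19, 3.26 and 2.60 after IAA. Its 4 members, 3 intergenic and 1 in an intron of the noncoding Gm12510, changed almost alike, by -1.11 to -1.16 (limma), although the level of the first, 4.29 RPKM, was well under the 6.79 to 7.80 of the others. The octamer shown for Klf4 belongs to that first and lowest member.

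The Sox2 locus (chr3:34744512-34760385, intergenic, 94107 bp from the start of Sox2, the partner of OCT4) is in the region of the known distal enhancer cluster of that gene. It measured 5.76, 5.13 and 5.23 RPKM uninduced and 2.87, 2.54 and 2.16 after IAA, a change of -1.10. All 4 members were lower, from 2.45 ± 0.0948 to 1.26 ± 0.198 RPKM at the outlying first member, and from 6.64 ± 0.565 to 3.08 ± 0.234 at the highest, whose sequence is given above. At the Prdm14 locus (chr1:13073707-13094533, 32630 bp away), named for a factor that keeps FGF signalling and DNA methylation low in naive cells, the RPKM was 2.47, 2.47 and 2.17 uninduced and 1.26, 1.26 and 0.998 after IAA. That is a change of -1.02. Of its 6 members 5 were lower, and the sixth had a change of -0.57 (adjusted p = 0.0513).

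Both members beside Pou5f1 itself (chr17:35503482-35504890, 1128 bp from its start) were lower, and the locus went from 7.33, 7.44 and 7.82 to 4.64, 3.97 and 3.55 RPKM, a change of -0.90. By the genotype, the OCT4 protein of these cells comes from the CAG transgene and not from this region. Nanog, which encodes a homeodomain factor, had a locus of 2 members 3254 bp from its start (chr6:122701593-122716488) that went from 5.98, 5.36 and 5.60 to 3.78, 4.09 and 3.49 RPKM. The same locus lay within 100 kb of Dppa3. Its change of -0.58 was the smallest of the 7 and equalled the median peak, so it reads 0.00 after centring. A second locus within 100 kb of Nanog lay in introns of Slc2a3, a glucose transporter gene, and changed by -0.66 (5.05 ± 0.270 to 3.23 ± 0.592 RPKM; 3 of 3 members lower).

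Among 22 genes of signalling pathways, 3 had members within 100 kb, namely Fgf4 (the FGF ligand of ESCs), Tdgf1 (a Nodal co-receptor) and Etv5 (an ETS factor downstream of FGF). All 9 members of these 4 loci were lower, beside 92.9% of all tested members and 68.2% of all peaks, and the median locus change was -0.94, beside -0.84 over all 215 loci. The Fgf4 locus went from 5.59 ± 0.867 to 2.78 ± 0.218 RPKM, and the single member near Tdgf1 from 6.62 ± 0.716 to 3.34 ± 0.579. Etv5 had a locus of 4 members (6.05 ± 0.00732 to 3.30 ± 0.220 RPKM, change -0.88) and another of 1 member (change -0.73). In all of these the conditions did not overlap, as at 207 of all 215 loci. Of a mixed list of 19 genes, with regulators of chromatin and DNA methylation and other stem cell genes such as Mycn, Lin28a and Utf1, Tet2, Jarid2, Dppa5a and Zfp57 had members, and all 12 of these were lower, against the same 92.9% and 68.2%. Their median locus change of -0.86 was close to the -0.84 of all loci. The 5 members near Tet2, which encodes an enzyme that oxidizes 5-methylcytosine, fell most, from 4.99 ± 0.427 to 2.02 ± 0.0596 RPKM, a change of -1.30. The 3 members near Dppa5a, a marker gene of naive ESCs, went from 5.44 ± 0.357 to 2.80 ± 0.287 RPKM (-0.96), and the 2 near Jarid2, which encodes a cofactor of Polycomb repressive complex 2, from 2.58 ± 0.238 to 1.51 ± 0.127 (-0.77). The 2 near Zfp57, whose zinc finger product protects imprinted methylation, started highest of the loci near these 2 lists, at 8.55 ± 0.780 RPKM, and kept most, at 5.50 ± 0.850 (-0.65). None of 18 formative or differentiation genes had a member within 100 kb.

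**Figure D4:**
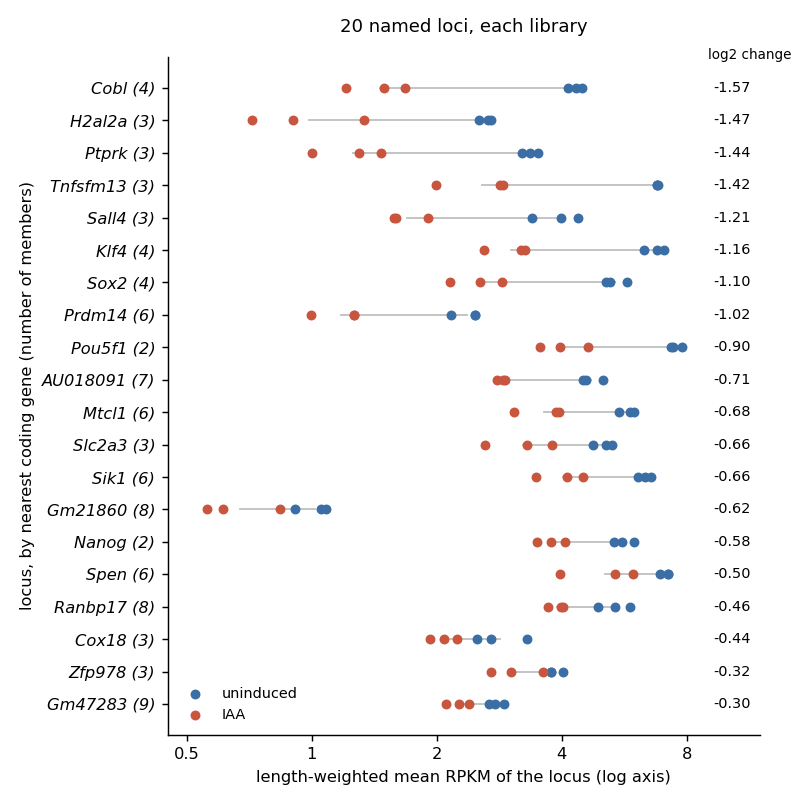
Length-weighted mean RPKM of 20 named loci in each uninduced (blue) and IAA (red) library on a log axis, ordered by log2 change (right), with the number of members in brackets and grey lines between the condition means. At all 20 loci the 3 IAA points lie left of the 3 uninduced points, from -1.57 at Cobl to -0.30 at Gm47283.

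Among loci of at least 3 tested members, the 4 with the largest falls were not near listed genes. Beside Cobl, which encodes an actin nucleator, 4 intergenic members (chr11:12466438-12470846, 1478 bp from the gene's start) went from 4.48, 4.14 and 4.32 to 1.49, 1.68 and 1.21 RPKM. The locus changed by -1.57 and kept 33.8% of its uninduced value. Its second member (chr11:12467805-12468164, sequence above) had the largest fall of all members, from 5.42 ± 0.789 to 1.30 ± 0.215 RPKM (change -1.98, SE 0.176, adjusted p = 8.97e-06). The loci near H2al2a, a histone H2A variant gene, near Ptprk, a receptor tyrosine phosphatase gene, and near Tnfsfm13, a fused reading of 2 TNF ligand genes, changed by -1.47, -1.44 and -1.42. The H2al2a locus read 2.66, 2.70 and 2.53 RPKM uninduced and 0.900, 1.34 and 0.717 after IAA. The Ptprk locus read 3.52, 3.22 and 3.35 against 1.30, 1.46 and 1.00, and the Tnfsfm13 locus 6.79, 6.79 and 6.84 against 2.85, 2.89 and 1.996. The uninduced values hardly varied, and IAA replicate 3 was the lowest in each of the 4 loci. Because these 4 loci were chosen by their falls, the calls of their members follow from that choice. All 13 were lower and 11 remained so after centring, beside 92.9% and 15.8% of all tested members.

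The next 2 falls of single members lay elsewhere. The first was 453126 bp from Cyp7b1 (chr3:18696464-18696826), at 0.973 ± 0.230 RPKM uninduced and 0.209 ± 0.116 after IAA, but it held only 1 to 14 reads per library. Its call was lost after centring (adjusted p = 0.0916) and with quantile normalization (0.0751), and 81.0% of its sequence words were repeated in the genome. The other, near Gm5089 (chr14:122416673-122417669), went from 6.11 ± 0.299 to 1.84 ± 0.268 RPKM (-1.68), and its locus of 2 members had the largest locus change of all, -1.65.

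Apart from the Prdm14 locus, the other 7 of the 8 loci with most members changed by -0.71 to -0.30, less than the median locus (-0.84). Among them, the Gm47283 (-0.30) and Gm21860 (-0.62) loci lie on chromosome Y, and most of their members consist largely of repeated sequence. The rest changed by -0.71 to -0.46. The longest locus, near Ranbp17 and Gabrp (8 members, 1 in an exon, chr11:33526515-33552008), went from 5.85, 4.90 and 5.39 to 3.99, 4.02 and 3.71 RPKM, a change of -0.46, with 7 members lower. Its members differed among themselves. The first fell from 4.06 ± 0.320 to 2.17 ± 0.473 RPKM (-0.89) and the last from 4.84 ± 0.480 to 3.47 ± 0.838 (-0.49), and the 2 highest, at 6.98 and 7.48 RPKM, changed by -0.35 and -0.43. The 7 members beside the miR-290 cluster of ESC microRNAs (4374 bp from Mir290a) were all lower, and that locus, whose nearest coding gene is AU018091, changed by -0.71. The Mtcl1, Sik1 and Spen loci, of 6 members each, changed by -0.68, -0.66 and -0.50. Relative to the median peak the Spen and Ranbp17 loci were higher after IAA, by 0.08 and 0.12.

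**Figure D5:**
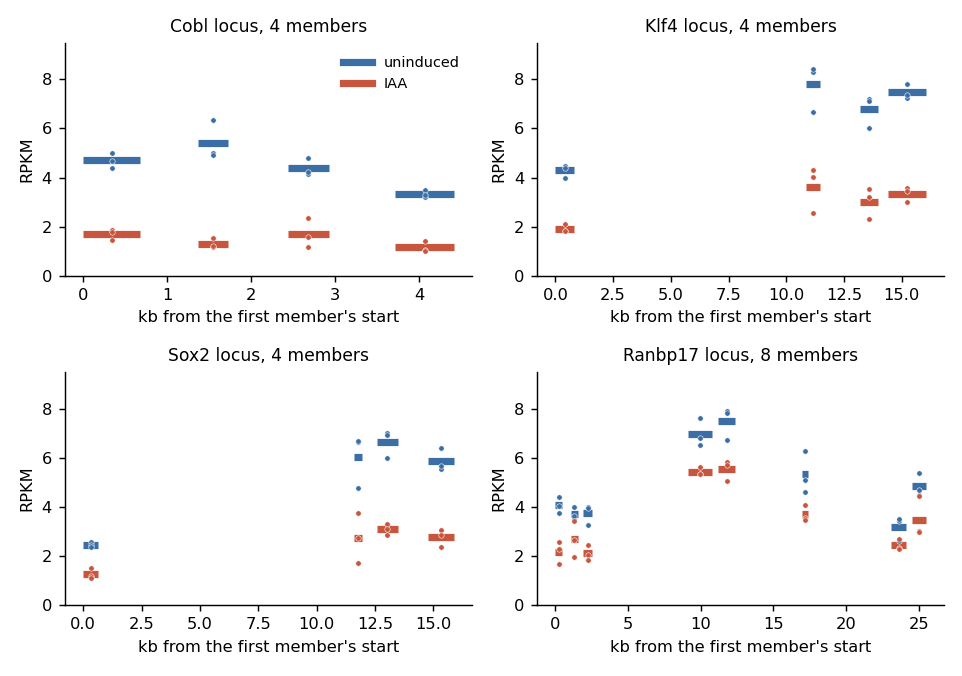
RPKM of each member along the Cobl, Klf4, Sox2 and Ranbp17 loci, in kb from the start of the first member; bars span the peak at the mean of 3 libraries, dots are libraries, uninduced in blue and IAA in red. The libraries of the 2 conditions do not overlap at any Cobl, Klf4 or Sox2 member, and they overlap at the Ranbp17 member with 3.18 RPKM uninduced.

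Members that were not called lower held more repeated sequence than those that were. For each peak the share of its 32-base words (taken every 16 bases) that occur more than once on the GRCm38 chromosomes was counted. The median share was 0% in the 540 members lower in limma, 32.8% in the 41 others and 95.1% in the 39 members under 0.5 RPKM, all of which were above 50%. Reads from such sequence cannot be placed with certainty. Only 15 of the 41 were above 50%, and of all 44 tested members above 50%, 29 (65.9%) were lower. Without peaks over 50%, 511 of 537 members (95.2%) were lower, and the change in the lead over solitary peaks was -0.21.

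Of the 41, 37 had a negative change. The 4 positive changes were 0.02 to 0.09 and belonged to 2 neighbouring members near Gm10801 and Gm10800 on chromosome 2 and to 2 near Zfp990 and Zfp978 on chromosome 4, with 21.9% to 57.5% repeated words. At the first of these the libraries read 3.38, 4.63 and 3.88 RPKM uninduced and 3.81, 3.96 and 4.87 after IAA, which overlap. The pair near Gm10801 was the single locus of 215 with a positive change (0.07). Chromosome Y held 17 members in 2 loci, named for Gm47283 (9 members) and Gm21860 (8), of which 12 were tested and 5 were lower; these loci changed by -0.30 and -0.62. Among loci of at least 3 tested members, the other small falls, near Zfp978 and in introns of Ankrd17 (nearest start Cox18), were -0.32 and -0.44.

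The members were also compared among themselves by place and sequence. The 232 tested members in introns changed by -0.88, the 309 between genes by -0.89 and the 40 in exons by -0.78, and the intronic change minus the intergenic was 0.02 (exact p = 0.9). Members under 10 kb from a coding gene start against those over 50 kb away differed by -0.04 (exact p = 0.5), and inner against outermost members of loci by -0.03 (exact p = 0.4). Over the 581 members the change had a Pearson r of -0.03 with GC content, 0.07 with length and 0.15 with the number of neighbours, as descriptions across peaks that share libraries and loci. The Spearman rho was -0.03, 0.06 and 0.08 in the same order. A positive value goes with a smaller fall.

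The octamer was more frequent in the 1000 bases around members (108 of 581, 18.6%) than around unmarked distal peaks (9.14%), clusters of them (8.82%) or all tested peaks (9.30%), and solitary OCT4-site peaks had it in 22.4%. The SOX-OCT letters were found in 5 members (0.861%), against 1.61% of solitary and 0.121% of unmarked distal peaks. ESRRB (CAAGGTCA), KLF (GGGNGTGG) and STAT (TTCCNGGAA) letters stood in 11.0%, 35.1% and 5.68% of members and in 8.81%, 39.4% and 3.99% of all tested peaks. Both strands were searched, and a match is a run of letters and not a shown binding site. Members with an octamer changed as those without within 0.01 (exact p = 0.7), and for the other 4 motifs the difference was -0.04 to 0.03 (exact p = 0.6 to 0.8). With the composite in so few members, its difference of 0.03 turned to -0.11 with 2000 bases searched (10 members; exact p = 0.1, the smallest this design allows).

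The rule's limit on distance cuts through a continuous range, and the peaks next to it were as follows. Just inside were 2 members near Tprg (second neighbour 12491 bp away), with changes of -0.52 and -0.41, and 1 near Mdm4 (12433 bp) with -0.85. Just outside were peaks near Fcrl5 and Etv3 (12540 bp), with -0.32 and -0.28, and near Mtss1 (12548 bp) with -1.04.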

How the data were processed

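H3K27ac ChIP-seq was made from 3 uninduced and 3 IAA samples of O4AID ESCs. Per the labels and the study's methods, the authors aligned reads to GRCm38/mm10 with Bowtie2 2.3.4.3, removed duplicates, called MACS2 peaks on the pooled uninduced reads, and took RPKM with DiffBind; regions gained after IAA alone are thus not in the table. The antibody is ab4792 in the labels and ab4729 in the methods. The deposited values are RPKM per library, and the pooled columns equal the mean of the 3 libraries.

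Members and gene lists were chosen with earlier results of these data known. From the deposited RPKM, peaks that reached 0.5 in 1 of the pooled columns were fitted by limma 3.58.1 (R 4.3.3; trend, robust) on log2(RPKM + 0.1), which understates changes of low peaks, with an adjusted p under 0.05 called. Set medians were compared by exact two-sided permutation over 20 labellings. The limma script was tested on simulated data. Every value was a whole number of reads within 0.001, which gave depth. Loci were named by a rule: the 8 with most members, those within 100 kb of naive genes, the 4 largest and 4 smallest falls among loci of at least 3 tested members, and the 3 members with the largest falls; the Gm5089, Tet2, Fgf4 and Gm10801 loci and the positive members were named after their values were seen. Unmarked clusters, the repeat share and the analyses without chromosome Y, without repeated peaks and without 2 libraries together were added after seeing the data. No pairing of same-numbered libraries was seen in the values. Coordinates are as deposited; sequences are from RefSeq GRCm38.p6.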

Additional observations from a re-analysis of the deposited data

How the results depend on the processing

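Across the alternatives run, the members' median change kept its sign in 20 of 20 and that of the loci in 12 of 12, as did the change in the members' lead over solitary (21), unmarked distal (21), neighbouring (17) and unmarked clustered peaks (17). The members' change was -0.76 with a pseudocount of 0.5 and also -0.76 without uninduced replicate 1 and IAA replicate 3, -0.32 centred on the median peak and -0.29 with quantile normalization. The loci gave -0.30 centred and -0.78 without the same 2 libraries. The change in the lead over solitary peaks was -0.21 with a pseudocount of 0.5 and without repeated peaks, -0.24 with neighbours within 5 kb and -0.10 within groups of uninduced RPKM. Over unmarked distal peaks it was -0.40 at 5 kb and -0.21 within RPKM groups, and over unmarked clusters -0.22 within those groups. The share of members lower was 15.8% (92) centred and 13.6% (79, with 3 higher) with quantile normalization, and 72.6% to 95.2% under the 19 others, in which 28.8% to 74.1% of all peaks were lower (33.3% at adjusted p under 0.01). The SOX-OCT difference turned to -0.11 with 2000 bases. Centring also reversed 6 of the 20 named loci: Ranbp17 (0.12), Spen (0.0767), Zfp978 (0.26), Cox18 (0.14), Nanog (0.0039) and Gm47283 (0.28). The causes were not tested.

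Leaving out each library in turn gave ranges of -0.91 to -0.79 for the members, -0.92 to -0.81 for the loci, -0.20 to -0.18 over solitary, -0.37 to -0.33 over unmarked distal, -0.22 to -0.14 over neighbouring and -0.33 to -0.28 over unmarked clustered peaks, -0.10 to -0.07 for 4 or more others against solitary, -0.0711 to 0.0870 for the SOX-OCT difference, and 79.9% to 92.3% for the share lower. Same-numbered libraries had correlations of deviations of -0.0143, -0.0910 and -0.0614, and the other pairs -0.0716 to 0.137. No pairing by number was seen, but values this small cannot tell whether same-numbered samples were handled together. With the replicate block 545 members (93.8%) were lower, 538 of them shared with the 540, and it left the other changes as they were (smallest sign-flip p 0.25). Depth limits single members, at 42 to 104 reads in the median one.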
